A study of Homo sapiens with 12 samples.

Results

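Galectins are small proteins that bind β-galactoside sugars on glycoproteins through a conserved carbohydrate-recognition domain. They are made in the cytosol, leave the cell by an unconventional route, and act both outside the cell, where they cross-link surface glycoproteins, and inside it, where some of them mark damaged endosomes and lysosomes. In myeloid cells LGALS3 is known as a macrophage antigen, LGALS9 as a ligand of the immune checkpoint receptor HAVCR2 (TIM-3), and LGALS12 as a galectin of adipocytes and myeloid cells. The genes described here are LGALS1, LGALS3, LGALS8, LGALS9, LGALS12 and LGALS3BP, the last of which encodes a secreted glycoprotein that binds galectins and is itself no galectin. They were taken by gene symbol and are 6 of the 20003 genes used. All 6 were listed in every sample and all 6 passed the filter on low values in each comparison. The genes were chosen by symbol with their FPKM in all 12 samples, and so their fold changes, already known. Their levels and fold changes are therefore a description, and the adjusted p-values beside them give their place in a fit of all genes and are not independent evidence.

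The NB4 line derives from an acute promyelocytic leukemia and carries PML-RARα, and Kasumi-1 is an acute myeloid leukemia line with the AML1-ETO fusion. Poly(A) mRNA was sequenced from 4 groups of 3 samples, which were NB4 control, NB4 with OGP46, Kasumi-1 control and Kasumi-1 with OGP46. OGP46 is a kaurene diterpenoid made from oridonin, and it was given at 1 μM, while the controls received its solvent DMSO. The labels give 48 h of incubation, and a figure legend for these libraries gives a longer time. Each leukemia subtype is represented by a single cell line. The labels do not say whether the samples of a group were separate cultures, although the study describes its experiments as independent repeats, so the spread behind the p-values may be partly technical. In these bulk samples, fewer cells of a type and less RNA per cell cannot be told apart.

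The values are FPKM, that is fragments scaled to transcript length and library size, summing to 248207 to 310262 per sample, with 9339 to 9746 genes at 1 FPKM or more. In NB4 cells the sums were 256268, 256045 and 248207 in controls and 263341, 276022 and 291523 with OGP46, without overlap. In Kasumi-1 cells the sums of the groups overlapped. The NB4 fold changes without scaling to equal sums or centring hold this difference, whose cause was not tested. The sequencing depth is unknown, since FPKM hold no counts. The labels of the lines were checked with marker genes. KIT lay between 110.0 and 144.9 FPKM and CD34 between 91.4 and 107.8 FPKM in Kasumi-1 cells, against at most 1.22 and 1.31 FPKM in NB4 cells. Of the 4 promyelocytic leukemia markers, STAB1 was at 9.09 to 9.28 FPKM in NB4 controls against 0.208 to 0.427 FPKM in Kasumi-1 controls. HGF did not set NB4 cells apart, with 7.65 to 11.15 FPKM in their controls and 11.54 to 15.95 FPKM in Kasumi-1 controls. FGF13 was listed at 0 in all NB4 samples and PTGDS reached at most 0.0624 FPKM there. CD3D, a T cell gene, stood at 13.5 to 34.65 FPKM in NB4 cells while its partner CD3E was at 0.0608 FPKM or less. TRH, another Kasumi-1 marker, fell with OGP46 in that line (log2 fold change -0.84 ± 0.08 SE, adjusted p = 0.0103), a call lost without the filter (adjusted p = 0.129), without the trend (0.155), without control 1 (0.0608) and without OGP46 sample 1 (0.0554). The red cell gene HBB and the platelet gene PF4 were at most 0.0863 FPKM in any sample. Other markers of blood cell types were not all as low. The B cell gene CD79A was at 0.803 to 2.06 FPKM over all samples, and the red cell gene HBA1 reached 0.184 FPKM in NB4 OGP46 sample 1.

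Before the results, 2 control libraries have to be set apart. Over 10 genes that are near absent from NB4 cells and abundant in Kasumi-1 cells, NB4 control 3 held a median of 1.13% of the Kasumi-1 level, where the other NB4 samples held 0.0438% to 0.254%. Over 14 genes of the opposite kind, Kasumi-1 control 2 held 1.34% of the NB4 level, where the other Kasumi-1 samples held 0.156% to 0.209%. LGALS1, rank 44 among all genes in NB4 controls, was also highest in Kasumi-1 control 2 among the Kasumi-1 samples. Its FPKM in Kasumi-1 control 2 was 1.26% of the NB4 mean, against 0.167% and 0.157% in the other 2 controls. With OGP46 it was 0.298%, 0.298% and 0.258% of the NB4 mean, above the 0.209%, 0.188% and 0.156% of NB4 signal in those libraries. The part of this signal in other genes was not tested one by one, and the main galectin values that rest on Kasumi-1 control 2 are given with and without it.

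**Figure D1:**
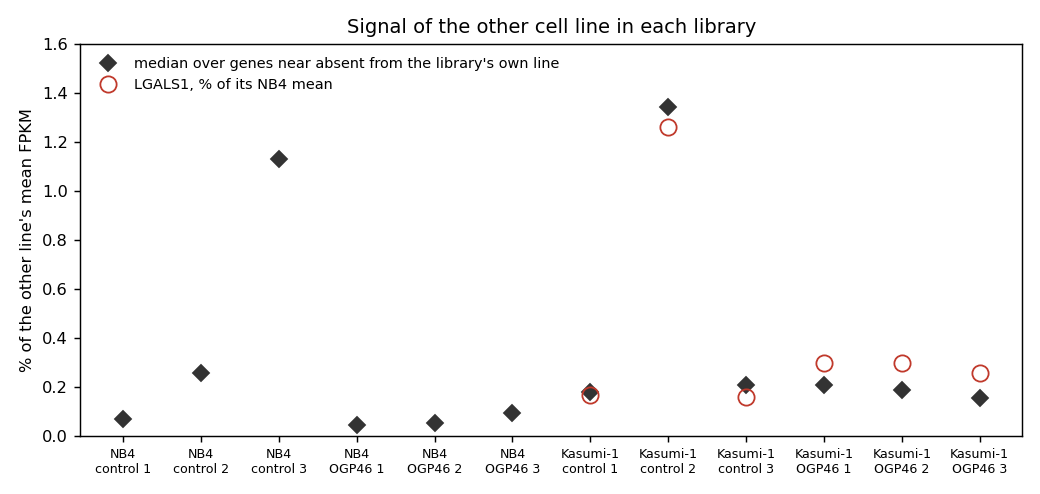
Signal of the other cell line in each of the 12 libraries, in percent of the other line's mean FPKM. Diamonds are the median over 10 genes (NB4 libraries) or 14 genes (Kasumi-1 libraries) that are near absent from the library's own line, and open circles are LGALS1 in the Kasumi-1 libraries. NB4 control 3 (1.13%) and Kasumi-1 control 2 (1.34%) stand apart, and LGALS1 in Kasumi-1 control 2 lies beside that library's diamond at 1.26%.

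In RefSeq on GRCh38.p14, LGALS1 lies at chr22:37675636-37679802 on the plus strand, LGALS3 at chr14:55129252-55145430 on the plus strand, LGALS8 at chr1:236518214-236552981 on the plus strand, LGALS9 at chr17:27631188-27649560 on the plus strand, LGALS12 at chr11:63506084-63516772 on the plus strand and LGALS3BP at chr17:78971255-78979923 on the minus strand. Each gene has a single FPKM value per sample, and the transcripts or exons behind it are not given in the sources used here. LGALS9 shares 10980 bases of the same strand with the gene model AC015688.4 and has the near-identical paralogs LGALS9B and LGALS9C, so that its reads could be split. LGALS8 overlaps HEATR1 and 3 antisense genes on the opposite strand. The library kit was a stranded one, but whether the counting used strand is not given in the sources used here.

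The promoter table from RefSeq held 4 of the 6 genes. The 250 bases before the start are printed for LGALS3, which had the largest positive log2 fold change of the 6 genes with OGP46 in both lines, for LGALS9, the main galectin of Kasumi-1 cells, and for LGALS3BP, whose call in NB4 cells depended on the fit. They are written 5′ to 3′ on the strand of the gene, with matches to the motifs searched in capitals, for LGALS3 at chr14:55129002-55129251, for LGALS9 at chr17:27630938-27631187 and for LGALS3BP at chr17:78979924-78980173.
LGALS3: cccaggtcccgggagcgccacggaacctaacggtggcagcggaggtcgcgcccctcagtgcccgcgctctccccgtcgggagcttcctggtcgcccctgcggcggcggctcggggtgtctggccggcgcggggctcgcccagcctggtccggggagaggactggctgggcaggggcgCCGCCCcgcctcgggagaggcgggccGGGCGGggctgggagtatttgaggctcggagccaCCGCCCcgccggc
LGALS9: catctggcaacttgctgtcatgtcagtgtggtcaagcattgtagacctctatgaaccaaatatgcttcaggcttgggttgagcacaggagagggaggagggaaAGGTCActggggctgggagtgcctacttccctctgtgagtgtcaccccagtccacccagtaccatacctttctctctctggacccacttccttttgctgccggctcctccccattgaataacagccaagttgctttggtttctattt
LGALS3BP: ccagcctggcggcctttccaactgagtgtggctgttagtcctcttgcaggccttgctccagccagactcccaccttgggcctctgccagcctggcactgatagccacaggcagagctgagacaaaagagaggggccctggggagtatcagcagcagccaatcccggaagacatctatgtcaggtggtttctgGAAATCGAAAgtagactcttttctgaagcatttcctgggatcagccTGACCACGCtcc
Both strands were searched for the core of the interferon response element, the antioxidant response element core TGACNNNGC, the nuclear receptor hexamer AGGTCA, the GC box GGGCGG and the TATA box TATAAA. The LGALS3 window held 3 GC boxes, a motif found in 42.6% of the 35116 promoters of the same length in the table, and none of the other motifs. The LGALS9 window held 1 nuclear receptor hexamer, 147 to 142 bases before the start, a motif of 12.1% of promoters. The LGALS3BP window held an interferon response element core 58 to 49 bases before the start, found in 3.02% of promoters, and an antioxidant response element core 12 to 4 bases before the start, found in 10.9% of promoters. A match of letters is a description of the window and does not show that a factor binds there.

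The galectin make-up differed between the cell lines. LGALS1 accounted for 93.9% to 95.9% of the summed FPKM of the 5 galectins in the 6 NB4 samples, whereas LGALS9 accounted for 67.3% to 72.7% in 5 of the 6 Kasumi-1 samples. In Kasumi-1 control 2, which held NB4 signal, LGALS9 made up 59.1% and LGALS1 22.2%. As mean FPKM, the order in NB4 controls was LGALS1 at 665.4, LGALS12 at 17.1, LGALS3 at 11.5, LGALS9 at 2.25, LGALS3BP at 1.61 and LGALS8 at 1.09. Of these neighbours, LGALS12 and LGALS3 had overlapping values, and so did LGALS9, LGALS3BP and LGALS8. In Kasumi-1 controls the order was LGALS9 at 24.7, LGALS12 at 5.76, LGALS1 at 4.18, LGALS8 at 2.84, LGALS3BP at 1.70 and LGALS3 at 0.182. Here each neighbour from LGALS12 down to LGALS3BP overlapped the next, and LGALS9 and LGALS3 stood clear at both ends. The place of LGALS1 rested on control 2, since without that library its mean was 1.28 FPKM, below LGALS8 at 2.94 and LGALS3BP at 2.03, and LGALS12 at 5.88 no longer overlapped the next gene. With OGP46 the order in NB4 cells had LGALS3 at 25.2 before LGALS12 at 18.5, with overlapping values, and in Kasumi-1 cells LGALS8 at 3.47 came before LGALS1 at 2.26 without overlap, and LGALS8 was also above LGALS1 in the controls without control 2.

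**Figure D2:**
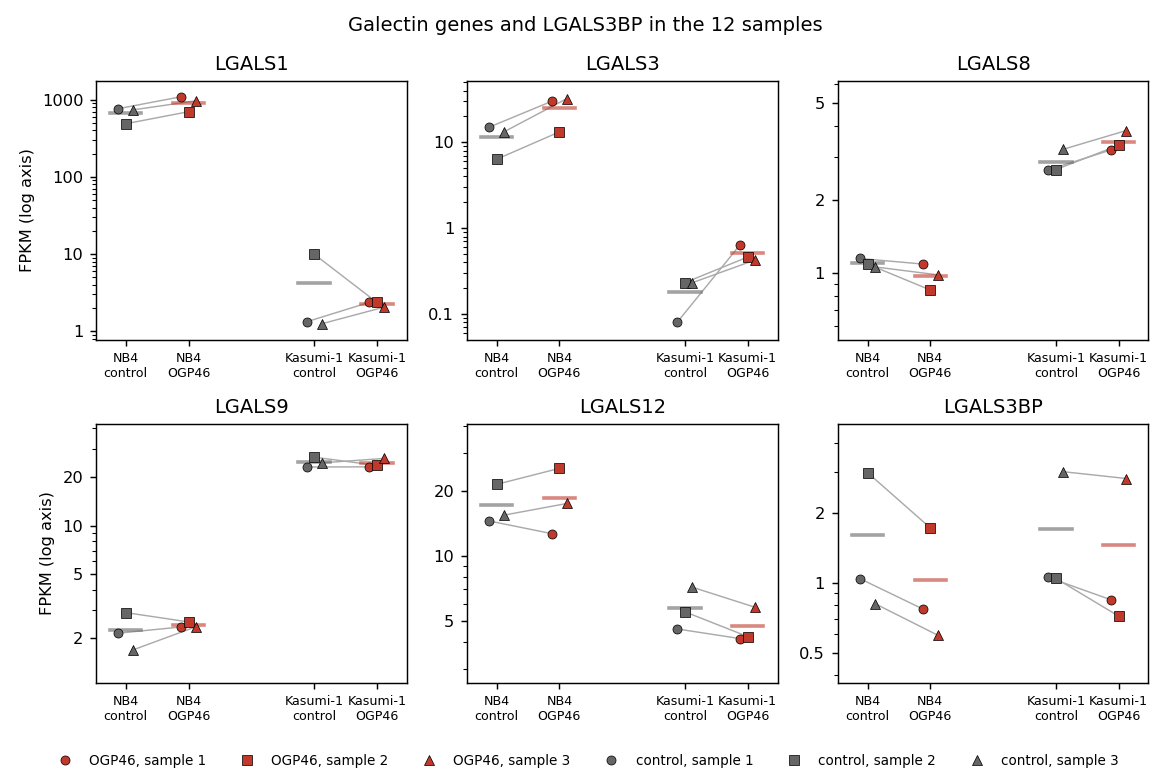
FPKM of the 6 genes in the 12 samples on log axes, with a separate scale for each gene. Circles, squares and triangles are samples 1, 2 and 3, grey lines join control and OGP46 samples of the same number, and bars are group means. LGALS1 and LGALS3 lie far higher in NB4 cells, LGALS9 and LGALS8 in Kasumi-1 cells, and LGALS3 is higher with OGP46 in all 3 pairs of both lines.

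Between the controls of the 2 cell lines, 5 of the 6 genes passed the threshold (adjusted p under 0.05, and 0.58 or more as absolute log2 fold change), 3 of them higher in NB4 cells and 2 lower. In the same comparison 52.4% of the 12302 genes tested passed, 22.7% higher and 29.7% lower, so the lines differed widely and the count is read against that share. The log2 fold change of NB4 over Kasumi-1, on the scale of log2(FPKM + 0.1), was 7.93 ± 0.66 (SE) for LGALS1, 5.33 ± 0.34 for LGALS3 and 1.56 ± 0.18 for LGALS12. It was -3.43 ± 0.17 for LGALS9 and -1.30 ± 0.13 for LGALS8. LGALS3BP had -0.12 ± 0.50 and an adjusted p of 0.839, and its direction turned under the scaling to equal sums (0.07). Without Kasumi-1 control 2 the value for LGALS1 was 8.88 ± 0.19.

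LGALS1 encodes the prototype galectin-1, which forms dimers and cross-links surface glycoproteins of T cells and other cells. In NB4 controls 1, 2 and 3 it was at 766.5, 489.1 and 740.6 FPKM, and with OGP46 at 1094, 700.6 and 970 FPKM. Sample 2 was the lowest of both groups and each OGP46 sample was above the control of its number, by 1.43-, 1.43- and 1.31-fold, while the groups overlapped. The mean went from 665.4 ± 153.3 (SD, n = 3), rank 44 among all genes, to 921.5 ± 201.1 FPKM, rank 27. On the log2 scale this was a change of 0.47 ± 0.21 (SE) with an adjusted p of 0.173. With the replicate number as a block the SE was 0.07 and the adjusted p 0.00118, but the change stayed under the minimum of 0.58 and was not counted. Over all genes tested in NB4 cells the median change was 0.18 on the log2 scale, and after median centring with the block LGALS1 had 0.28.

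In Kasumi-1 cells LGALS1 was low. The controls had 1.32, 9.97 and 1.25 FPKM and the OGP46 samples 2.36, 2.36 and 2.05 FPKM. The second control is the library with NB4 signal described above, and it alone exceeded the OGP46 samples. Its log2 fold change was -0.19 ± 0.62 (SE, adjusted p = 0.912) with all samples and 0.77 ± 0.12 (adjusted p = 0.0997) without that library, so 1 library set its direction. After the share of NB4 signal was subtracted from each library, LGALS1 came to 0 FPKM in all 3 controls and to 0.708, 0.867 and 0.816 FPKM in the OGP46 samples. The controls were thus no higher than the NB4 signal in the same libraries, and a fold fitted against 0 depends on the pseudocount.

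LGALS3 encodes galectin-3, the chimera-type galectin with a long N-terminal tail, abundant in macrophages and recruited to damaged lysosomes. Its NB4 controls were at 15.0, 6.35 and 13.3 FPKM and its OGP46 samples at 30.1, 13.2 and 32.3 FPKM. Every OGP46 sample was above the control of its number, by 2.01-, 2.08- and 2.43-fold, but OGP46 sample 2 lay below controls 1 and 3, so the groups overlapped. LGALS3 thus had a log2 fold change of 1.11 ± 0.40 (SE), which is 2.16-fold, with an adjusted p of 0.12. With the replicate block LGALS3 was up-regulated, with an SE of 0.09 and an adjusted p of 2.18e-05, and with block and median centring the log2 fold change was 0.92 (adjusted p = 0.000636). Without OGP46 sample 2 and without a block it also passed, at 1.52 ± 0.30 (adjusted p = 0.0345), but leaving out any of the other 5 samples gave no call, and the range over all 6 was 0.73 to 1.52.

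The same gene was scarcely present in Kasumi-1 cells, with 0.0809, 0.232 and 0.232 FPKM in controls and 0.644, 0.462 and 0.427 FPKM with OGP46. The groups did not overlap there, as was so, with OGP46 higher, for 17.4% of the 11835 genes tested in that line. In the fit it had a log2 fold change of 1.16 ± 0.28 (SE, adjusted p = 0.115), with an adjusted p of 0.0547 under the block and of 0.0451 under block and median centring. At such low levels the pseudocount matters: a pseudocount of 1 gave 0.35 and one of 0.01 gave 1.55. As a share of the NB4 mean LGALS3 was 0.441% to 1.27% in the controls and 2.33% to 3.51% with OGP46, the latter above the 0.156% to 0.209% of NB4 signal in those libraries. Controls 2 and 3 were both at 1.27%, while their shares of NB4 signal were 1.34% and 0.208%. Without control 2 the log2 fold change was 1.30 ± 0.31 (adjusted p = 0.139). After subtraction of the NB4 signal LGALS3 was at 0.0485, 0 and 0.194 FPKM in controls and 0.606, 0.427 and 0.399 FPKM with OGP46, and its log2 fold change was 1.80 ± 0.37 (adjusted p = 0.0719). Its log2 fold changes in the lines differed by -0.05 ± 0.54 (SE, adjusted p = 0.979). This interval is wide, and with a pseudocount of 1 the difference was 0.69.

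LGALS9 encodes a tandem-repeat galectin with a pair of carbohydrate-recognition domains, known as an interferon-inducible gene. Its Kasumi-1 levels lay close together, at 23.1, 26.5 and 24.5 FPKM in controls and 23.1, 23.6 and 26.1 FPKM with OGP46. The fitted difference was -0.02 on the log2 scale (SE 0.07, adjusted p = 0.901), with pairs in both directions. In NB4 cells LGALS9 had 2.15, 2.89 and 1.70 FPKM in controls and 2.35, 2.53 and 2.36 FPKM with OGP46, and the log2 fold change was 0.13 ± 0.18 (adjusted p = 0.643). Without NB4 control 3 it was -0.05. The NB4 level was 6.94% to 11.8% of the Kasumi-1 mean, above the 1.13% of Kasumi-1 signal in NB4 control 3.

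LGALS12 encodes a tandem-repeat galectin associated with lipid droplets and with myeloid and fat cells. In NB4 cells it was at 14.5, 21.45 and 15.5 FPKM in controls and at 12.7, 25.4 and 17.5 FPKM with OGP46, with sample 2 the highest of both groups. Its log2 fold change was 0.08 ± 0.24 (SE, adjusted p = 0.846) and turned to -0.05 under scaling to equal sums and to -0.12 under median centring. In Kasumi-1 cells the controls had 4.59, 5.52 and 7.17 FPKM and the OGP46 samples 4.15, 4.24 and 5.79 FPKM. All 3 pairs were lower with OGP46, by ratios of 0.903, 0.768 and 0.808, while the groups overlapped. The log2 fold change of -0.27 ± 0.17 had an adjusted p of 0.452, and of 0.0768 with the block.

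LGALS8 encodes a tandem-repeat galectin that detects damaged endosomes and binds the autophagy receptor CALCOCO2. It had 1.14, 1.08 and 1.05 FPKM in NB4 controls and 1.08, 0.847 and 0.978 FPKM with OGP46, and its log2 fold change was -0.16 ± 0.15 (SE, adjusted p = 0.468). In Kasumi-1 cells it had 2.65, 2.66 and 3.22 FPKM in controls and 3.20, 3.35 and 3.85 FPKM with OGP46, and its log2 fold change was 0.28 ± 0.11 (adjusted p = 0.274). Each NB4 pair was lower with OGP46 and each Kasumi-1 pair higher, and the groups overlapped in both lines. The change in NB4 cells minus that in Kasumi-1 cells was -0.44 ± 0.17 (SE), with an adjusted p of 0.395 over all genes and of 0.151 with the block.

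LGALS3BP encodes the galectin-3-binding protein, a secreted scavenger receptor glycoprotein that is also interferon-inducible. In NB4 controls it had 1.04, 2.97 and 0.812 FPKM, and with OGP46 0.771, 1.72 and 0.594 FPKM. In Kasumi-1 controls it had 1.05, 1.04 and 3.00 FPKM, and with OGP46 0.844, 0.718 and 2.80 FPKM. One sample number stood high in both groups of each line, number 2 in NB4 cells and number 3 in Kasumi-1 cells, and all 3 pairs of each line were lower with OGP46. The log2 fold change in NB4 cells was -0.51 ± 0.49 (SE, adjusted p = 0.495). With the block its SE was 0.14 and its adjusted p 0.0273, under the minimum of 0.58 in size, and with block and median centring it was -0.71 (adjusted p = 0.0195) and counted as down-regulated. In Kasumi-1 cells it was -0.29 ± 0.49 (adjusted p = 0.811), and 0.183 was the adjusted p with the block.

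Counted together, none of the 6 genes passed without the block in NB4 cells, where 1.56% of 11750 genes passed, and none in Kasumi-1 cells, where 0.0338% of 11835 genes passed. With the block 1 passed in NB4 cells, LGALS3, against 6.21% of all genes (5.06% higher and 1.15% lower), and none in Kasumi-1 cells, against 0.617%. With block and median centring LGALS3 and LGALS3BP passed in NB4 cells, against 3.33% of genes, and of these calls over all genes 214 were higher and 177 lower, where the block alone gave 595 higher and 135 lower. LGALS3 passed in Kasumi-1 cells in that fit, against 0.769%. For the difference between the lines none of the 6 passed, and limma called 0 of the 12309 genes, with 1225 higher and 123 lower at an unadjusted p under 0.05. That split depended on the scaling. It was 403 higher and 408 lower under scaling to equal sums, and 435 higher and 446 lower under median centring. With the block 1.93% of genes passed for the difference between the lines, and again none of the 6. Sample number 2 of NB4 cells was the lowest for LGALS1 and LGALS3 and the highest for LGALS9, LGALS12 and LGALS3BP in both groups, and sample number 3 of Kasumi-1 cells was the highest for LGALS8, LGALS12 and LGALS3BP in both groups.

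**Figure D3:**
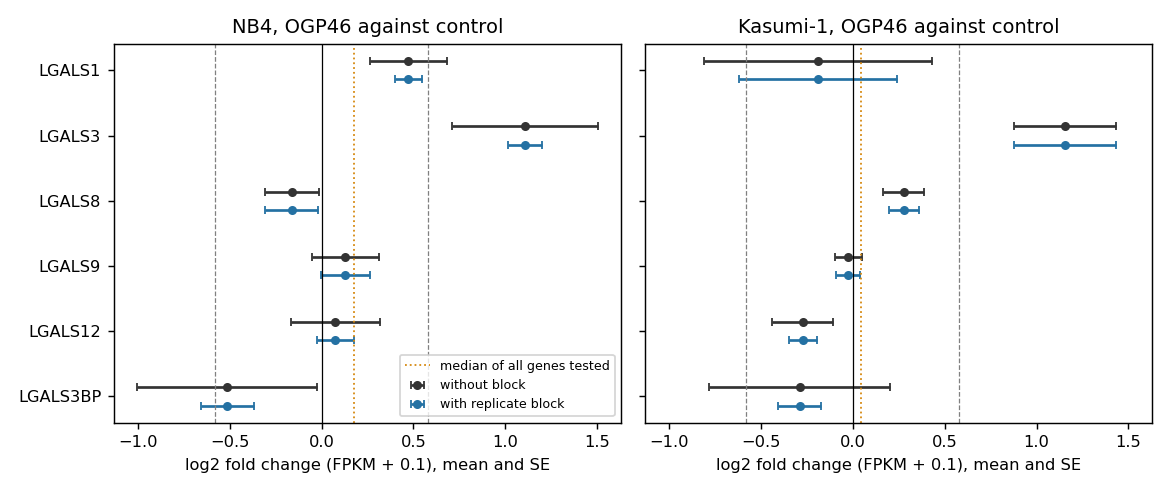
Log2 fold change of OGP46 over control, on the scale of log2(FPKM + 0.1), with its SE, for the 6 genes in NB4 cells (left) and Kasumi-1 cells (right). Black is the fit without and blue the fit with the replicate block, dashed lines mark a size of 0.58 and the dotted line is the median of all genes tested. LGALS3 is above 1 in both lines, and in NB4 cells its SE is 0.40 without and 0.09 with the block.

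The other 12 genes of the galectin family were near absent. LGALS7, LGALS7B, LGALS13, LGALS14 and LGALS16 were listed at 0 in all 12 samples, and their summed FPKM with the other 7 stayed between 0.277 and 1.33 in NB4 cells and between 0.295 and 0.567 in Kasumi-1 cells. Of the 12, 4 were tested in NB4 cells and 2 in Kasumi-1 cells, and none passed with or without the block. LGALSL, a galectin-related gene, had 0.253, 0.228 and 0.136 FPKM in NB4 controls and 0.255, 0.428 and 0.535 FPKM with OGP46 (log2 fold change 0.71 ± 0.29 SE, adjusted p = 0.147). LGALS9C had a log2 fold change of 0.73 ± 0.58 in NB4 cells (adjusted p = 0.416) and was listed at 0 in all Kasumi-1 samples.

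Several genes for glycoproteins that galectins bind rose with OGP46 in NB4 cells. There 4 of the 19 ligand genes tested rose and none fell, where 1.56% of all genes passed, with a median log2 fold change over the 19 of 0.30 beside 0.18 for all genes. These were the integrin subunit ITGA3 (1.35 ± 0.22 SE, adjusted p = 0.0335), the semaphorin and VEGF co-receptor NRP1 (1.24 ± 0.25, adjusted p = 0.0469), the integrin subunit ITGAM (1.08 ± 0.14, adjusted p = 0.0233), and the phagocytic receptor MERTK (0.78 ± 0.14, adjusted p = 0.0383), a receptor of LGALS3. This list and those that follow were chosen with earlier results of these data known. The paper itself names ITGA3 and ITGAM among the genes changed in NB4 cells. Shares of list genes set beside those of all genes are therefore a description and do not test enrichment. Without the block, none of the 4 passed after scaling to equal sums or after median centring. ITGAM went from 2.90, 2.40 and 2.91 FPKM to 5.89, 5.09 and 6.81 FPKM. With the block 6 rose, where 5.06% of all genes did, adding the phosphatase PTPRC (CD45) at 0.81 (adjusted p = 0.000254) and the LGALS9 receptor HAVCR2 at 0.71 (adjusted p = 0.0105). HAVCR2 had 0.919, 0.282 and 0.630 FPKM in controls and 1.73, 0.516 and 1.00 FPKM with OGP46. In Kasumi-1 cells none of the 19 tested passed and the median was 0.07 beside 0.05 for all genes, with PTPRC at 0.50 ± 0.08 (adjusted p = 0.0611) and CD33 at 0.36 ± 0.06 (adjusted p = 0.0611). The difference between the lines passed with the block for ITGA3 (1.08, adjusted p = 0.0377), ITGAM (0.94, adjusted p = 0.0342) and NRP1 (1.17, adjusted p = 0.0101), and for none of the ligand genes without it. With the block 1.93% of all genes passed for that difference.

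The enzymes that build the glycans bound by galectins did not pass in either line. All 13 branching and lactosamine enzymes tested had positive log2 fold changes in NB4 cells, with a median of 0.25. The median was 0.18 for all genes, so most genes tested were positive too. With block and median centring, where the median of all genes was -0.015, MGAT4B (-0.162), MGAT2 (-0.082) and B3GNT8 (-0.017) turned negative and the others stayed positive. The largest changes without the block were C1GALT1C1, the chaperone of the core O-glycan enzyme, at 0.48 ± 0.12 (SE, adjusted p = 0.0691) and B3GNT2, a poly-lactosamine enzyme, at 0.42 ± 0.10 (adjusted p = 0.0662). In Kasumi-1 cells their median was 0.13 beside 0.05, and FUT8, which adds core fucose, had 0.34 ± 0.12 (adjusted p = 0.216). Sialyltransferases cap galactose and can hide it from galectins. None of the 6 passed in NB4 cells (median 0.22) or Kasumi-1 cells (median -0.002). ST3GAL2 had 0.49 ± 0.15 in NB4 cells (adjusted p = 0.0915), and its difference between the lines of 0.53 passed with the block (adjusted p = 0.0301), as 1.93% of all genes did.

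Of 20 genes that act with galectins at damaged lysosomes, 1 rose in each line, where 1.56% of all genes passed in NB4 and 0.0338% in Kasumi-1 cells. In NB4 cells it was TRIM16, a ubiquitin ligase that works with LGALS3, at 3.52, 3.18 and 3.11 FPKM in controls and 5.60, 5.14 and 6.18 FPKM with OGP46 (log2 fold change 0.77 ± 0.11 SE, adjusted p = 0.0298). With the block MAP1LC3B, an autophagosome protein (0.59, adjusted p = 0.00168), and the autophagy receptor OPTN (0.90, adjusted p = 0.0149) passed as well, where 5.06% of all genes rose. In Kasumi-1 cells it was the autophagy receptor SQSTM1, at 20.8, 24.45 and 21.6 FPKM in controls and 34.7, 32.7 and 33.5 FPKM with OGP46 (log2 fold change 0.59 ± 0.07, adjusted p = 0.0242). The list medians were 0.31 in NB4 and 0.18 in Kasumi-1 cells, beside 0.18 and 0.05 for all genes.

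Interferon-stimulated genes were counted because LGALS9 and LGALS3BP are known targets of interferon. None of the 15 tested passed in NB4 cells, and none of 13 in Kasumi-1 cells. In NB4 cells 12 were positive, with a median of 0.32 beside 0.18 for all genes. With the block the interferon regulatory factors IRF9 (0.79, adjusted p = 0.000439) and IRF7 (0.60, adjusted p = 0.00276) rose in NB4 cells, where 5.06% of all genes did. IFITM1 in Kasumi-1 cells had -0.55 ± 0.07 (SE, adjusted p = 0.0397), under the minimum size, and passed with block and median centring at -0.61 (adjusted p = 0.00273). Of 5 myeloid and fat cell regulators tied to LGALS12, CEBPB rose in NB4 cells (0.82 ± 0.11, adjusted p = 0.0289), where 1.56% of all genes passed, and PPARG with the block (0.67, adjusted p = 0.0339). None of the 4 tested passed in Kasumi-1 cells.

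Genes of myeloid maturation were counted because LGALS3 is abundant in macrophages. In NB4 cells, of 13 monocyte and macrophage genes tested, 4 rose, among them the complement receptor C5AR1 (1.93 ± 0.37 SE, adjusted p = 0.0432), the integrin subunit ITGAX (1.11 ± 0.18, adjusted p = 0.0335) and the lysosomal glycoprotein CD68 (0.62 ± 0.12, adjusted p = 0.0399), where 1.56% of all genes passed. With the block 7 rose, where 5.06% of all genes did. Since this list too was chosen with earlier results known, these shares do not test enrichment. Of the 13 tested, 12 were positive, with a median log2 fold change of 0.60 beside 0.18 for all genes. The summed FPKM of the 14 genes of the list was 358.7 to 468.4 in NB4 controls and 375.8 to 476 with OGP46, so the sum overlapped between the groups, and 1 gene was listed at 0 in each. Most of that sum was LYZ, at 270.4 to 390.9 FPKM in controls and 262.4 to 367.1 FPKM with OGP46, so it says little of the other genes. None of the 5 primary granule genes passed without the block (median -1.36). With it 4 fell, where 1.15% of all genes did. Their log2 fold changes were -2.17 for ELANE, -1.45 for CTSG, -1.36 for PRTN3 and -0.62 for AZU1. ELANE, which is one of the 10 genes used above to read Kasumi-1 signal, had 0.503, 3.30 and 14.5 FPKM in controls, the last in NB4 control 3, and 0.321, 0.430 and 1.39 FPKM with OGP46. With the block and without NB4 control 3, ELANE had -1.60 (adjusted p = 2.84e-05) and 4 of the 5 still fell. With the block and the Kasumi-1 signal subtracted, ELANE did not pass the filter on low values, AZU1 had -0.54 under the minimum size, and 2 of the 4 tested fell, CTSG (-1.43) and PRTN3 (-1.32). The part of these cell-state genes in the LGALS3 values was not tested. In Kasumi-1 cells none of 11 monocyte genes and none of 5 granule genes passed with or without the block. All 5 granule genes were negative there, with a median of -0.39 beside 0.05 for all genes, and with block and median centring PRTN3 passed at -0.58 (adjusted p = 0.000634).

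The 10 list genes called in NB4 cells without the block, among them ITGA3, NRP1, ITGAM, MERTK, TRIM16, CEBPB, C5AR1, ITGAX and CD68, did not hold under every scaling. None of the 10 passed without the block after TPM scaling, after median centring, without the filter, without the trend, or when any single sample other than OGP46 sample 2 was left out. With block and median centring 8 of the 10 passed, TRIM16 and CD68 being the exceptions, and so did PTPRC (0.61), IRF9 (0.60) and all 5 primary granule genes. Of the genes named above as passing with the block alone, HAVCR2 (0.52, adjusted p = 0.0683), OPTN (0.71, adjusted p = 0.074) and PPARG (0.47, adjusted p = 0.12) then missed the adjusted p, and MAP1LC3B (0.40) and IRF7 (0.41) the minimum size. In the same fit the difference between the lines passed for NRP1 (1.04, adjusted p = 0.0242) and not for ITGA3, ITGAM or ST3GAL2. SQSTM1 in Kasumi-1 cells was at 0.53 (adjusted p = 0.00166) with block and centring, just under the minimum size. It did not pass without the filter or without the trend. The call was also lost without control 1 (0.55, adjusted p = 0.128), without control 3, or without OGP46 samples 1 or 2. Of the 2 list genes called in Kasumi-1 cells, SQSTM1 and TRH, only 1 passed with median centring and only 1 with a pseudocount of 1.

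**Figure D4:**
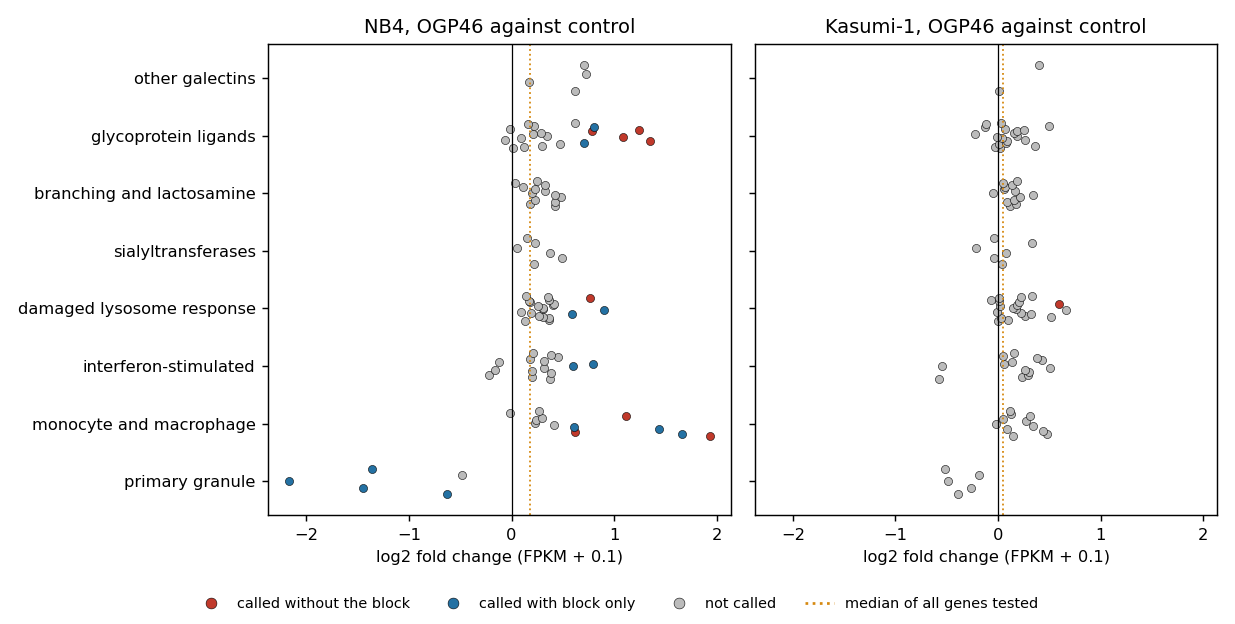
Log2 fold change of OGP46 over control, on the scale of log2(FPKM + 0.1), of the genes of 8 lists in NB4 cells (left) and Kasumi-1 cells (right). Each point is a gene tested (1 gene of the monocyte list is not shown), red where it passed without the block, blue where it passed with the block only and grey where it did not pass, and the dotted line is the median of all genes tested. In NB4 cells the monocyte and ligand lists reach furthest to the right and the primary granule genes lie to the left.

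The genes whose pattern was most like each galectin were found by Pearson's r of log2(FPKM + 0.1) over the 12 samples, among 9943 genes averaging 1 FPKM or more. These samples fall into 2 cell lines and share their libraries, so the r values are a description. For LGALS1 they were OLIG2 (r = 0.999), AHNAK (0.998) and VIM (0.998), each of which, like LGALS1, had its highest Kasumi-1 value in a control. OLIG2 and VIM are among the genes used above to read NB4 signal in Kasumi-1 libraries. VIM was at 142.6 to 328.7 FPKM in NB4 and 0.337 to 3.43 FPKM in Kasumi-1 cells. For LGALS3 they were ACSL1 (0.995), STK16 (0.994) and SAMD9 (0.992), and ACSL1 had 4.73 to 5.32 FPKM in Kasumi-1 controls and 6.06 to 6.84 FPKM with OGP46. For LGALS9 they were WASF1 (0.998), DAB2 (0.997) and NFYA (0.997), for LGALS8 ECHDC2 (0.993), TTYH2 (0.988) and P2RY13 (0.987), and for LGALS12 DLAT (0.987), LSP1 (0.987) and FBXO41 (0.986). LGALS3BP, which did not differ between the lines beyond its spread, had lower values, with HPDL at 0.863, LANCL2 at 0.765 and PODXL at 0.749.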

How the data were processed

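The authors deposited 1 file per sample with 1 FPKM value per gene symbol. The labels give mRNA libraries made with a stranded kit. The submitters' processing notes name Trimmomatic, HISAT2, Cufflinks, HTSeq and hg38, without their roles, and the annotation is not given in the sources used here. Of the values, 632 lie above 0 and below 1e-04, and how reads were assigned to genes is not given in the sources used here. The 27 symbols turned into dates were left out of the 20030 rows per file. Of the 20003 symbols kept, 19261 (96.3%) are in GENCODE release 29.

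From the deposited FPKM, log2(FPKM + 0.1) was compared by limma 3.58.1 in R 4.3.3 with a mean-variance trend, for genes averaging 0.1 FPKM or more in the samples fitted, with Benjamini-Hochberg adjustment over all genes tested. A gene passed with an absolute log2 fold change of 0.58 or more at an adjusted p under 0.05, and the difference between the lines at an adjusted p below 0.05. The fits without the block were run on simulated data with known changes. There the noise was drawn for each gene on its own, so effects shared by a library or by a sample number were not covered. Each cell line was fitted on its own 6 samples, the line comparison on the 6 controls and the difference on all 12 samples. No interval for counting error can be given without counts.

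The members and gene lists were chosen with earlier results of these data known. From each list, genes that passed are named, at most the 4 largest, or the 2 with the largest change where none passed, and per member the 3 most similar genes. For 1 gene that meets this rule, no result is reported here. KIT, CD34, CD3E, HBB, PF4 and a few values given for contrast were picked once their values had been seen.

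The numbers 1 to 3 in the labels were taken to pair control and OGP46 samples, because deviations from the group means of same-numbered samples correlated in every pair, at r = 0.355, 0.622 and 0.197 over 11750 genes in NB4 cells and 0.218, 0.157 and 0.395 over 11835 genes in Kasumi-1 cells. Samples with different numbers gave -0.468 to 0.224 in NB4 cells, the highest being control 1 with OGP46 sample 3, and -0.278 to 0.101 in Kasumi-1 cells. That highest value is above the 0.197 of same-numbered pair 3, so samples 1 and 3 of NB4 cells were not clearly set apart. Deviations from a group mean sum to 0, so negative values between different numbers are partly built in. The fits with the block use the same values from which the pairing was read. The study's methods name no pairing, so fits come first without the replicate block. Alternatives comprised pseudocounts of 1 and 0.01, no filter, a minimum mean of 1 FPKM, scaling to equal sums (TPM), median centring, no trend, the block, the block with centring and leaving out each sample. Subtracting the other line's signal and leaving out the libraries that hold it, alone or with the block, were chosen after seeing the data.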

Additional observations from a re-analysis of the deposited data

Results flagged for a closer look

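LGALS8 moved in opposite directions in the 2 cell lines in every same-numbered pair. The share of all genes with such a pattern was not counted, and the pairing by number was itself read from these data. The ratios of OGP46 to control were 0.949, 0.782 and 0.927 in NB4 cells and 1.21, 1.26 and 1.19 in Kasumi-1 cells. The difference of the log2 fold changes, NB4 minus Kasumi-1, was -0.442 with an SE of 0.175. It was tested in limma over all genes and did not pass, with an adjusted p of 0.395 without the block, 0.151 with the block and an unadjusted p of 0.0264. Leaving out each sample in turn gave -0.53 to -0.36. Groups of 3 samples were too small for a check of single samples that stand apart.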

How the results depend on the processing

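The counts of genes that passed depended on the fit, and the cause was not tested. In NB4 cells 183 passed, against 117 with a pseudocount of 1, 6 without a filter, 0 with TPM scaling, 0 with median centring, 4 without a trend, 730 with the replicate block, 391 with block and centring, and 0 to 396 when samples were left out in turn. The 396 came without OGP46 sample 2, and the other 5 samples gave 0 to 2. In Kasumi-1 cells 4 passed, against 2 with a pseudocount of 1, 1 without a filter, 24 with a minimum of 1 FPKM, 18 with TPM, 20 with centring, 0 without a trend, 73 with the block, 91 with block and centring, 12 after subtraction of the other line's signal and 0 to 11 when samples were left out. For the difference between the lines 0 passed, against 14 with a pseudocount of 1, 14 without a filter, 237 with the block, 153 with block and centring, 1 after subtraction, 1 without both libraries that hold the other line's signal, and 0 to 1 when samples were left out. Between the control groups 6366 to 6449 genes and 5 of the 6 members passed when samples were left out, and every other setting also gave 5 members. Of the 6 members 0 passed in NB4 cells, 1 with the block, 2 with block and centring and 0 to 1 when samples were left out. In Kasumi-1 cells 1 passed with block and centring and 1 after subtraction, and for the difference 1 after subtraction, which was LGALS1 in both.

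With OGP46 in NB4 cells LGALS12 turned to -0.05 (TPM), -0.117 (centring) and -0.117 (block and centring) and LGALS9 to -0.063 (centring) and -0.063 (block and centring). In Kasumi-1 cells LGALS1 came to 3.16 after subtraction and its difference between the lines to -2.69, both set by the pseudocount since the controls are then at 0, and to -0.20 without both libraries, where LGALS9 had -0.075. Between the lines LGALS3BP turned to 0.069 with TPM, and the difference for LGALS3 to 0.69 with a pseudocount of 1. Leaving out each sample gave, in NB4 cells, -0.046 to 0.32 for LGALS9, -0.18 to 0.319 for LGALS12 and -0.922 to 0.018 for LGALS3BP. In Kasumi-1 cells it gave -0.685 to 0.767 for LGALS1, -0.077 to 0.029 for LGALS9 and -0.864 to 0.189 for LGALS3BP. Between the control groups LGALS3BP had -0.649 to 0.359. The difference between the lines had -0.293 to 1.16 for LGALS1, -0.426 to 0.364 for LGALS3, -0.021 to 0.345 for LGALS9 and -0.702 to 0.351 for LGALS3BP. Where a group was left with 2 samples, its spread was pooled with that of the other groups.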
